A study of Mus musculus with 20 samples.

Results

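Of the 354 mouse solute carrier genes considered, 181 had a Suz12 peak close to an annotated end, and their Suz12 counts were compared before and after transcription was blocked. A gene was included when it is protein-coding, has a symbol of the form Slc, number, letter, number, and had a peak from any of 8 Suz12 peak lists within 1 kb of either annotated end of the gene (build mm10, GRCm38). The 10 amino acid carriers Slc38a1, Slc38a2, Slc38a4, Slc7a5, Slc1a4, Slc1a5, Slc3a2, Slc43a2, Slc7a3 and Slc7a11 were set aside. For comparison, 7963 of 21631 protein-coding genes had such a peak. The genes were thus chosen by the peak lists themselves, so the share of genes with a peak and the lists that called it are descriptions here.

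The libraries came from wild-type E14 mouse embryonic stem cells kept in serum medium with leukemia inhibitory factor on gelatin. All were ChIP-seq libraries made with an antibody to Suz12. Untreated cells (0 h) of a DRB experiment were set against cells after 12 h in 100 µM DRB, and untreated cells (0 h) of a triptolide experiment against cells after 9 h in 10 µM triptolide, with 2 libraries in each of the 4 groups. DRB inhibits the kinase that lets RNA polymerase II leave the promoter-proximal pause, and triptolide blocks initiation through the TFIIH helicase, so both treatments ask where Suz12 goes when transcripts are no longer made. The design text calls the replicates biological, but nothing says that they are separate cultures, so the p-values measure the spread between these libraries. All groups share 1 cell line, and the other 12 samples of the series were not analysed here.

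Suz12 belongs to the core of PRC2, the Polycomb complex that methylates H3K27 and sits mainly at CpG-rich promoters of genes that are not transcribed. Solute carriers are membrane proteins that move ions, sugars, amino acids, nucleotides, metals and transmitters across the plasma membrane or the membranes of organelles. Their numbered subfamilies follow sequence similarity and often substrate. Some, such as the plasma membrane transporters of glycine, noradrenaline or serotonin, serve specialised cells, while others, such as carriers of lactate, citrate or nucleotide sugars, serve most dividing cells.

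Since PRC2 sits mainly at CpG-rich promoters, the 250 bases before the start of 6 of these genes are shown. They run 5′ to 3′ on the strand of the gene, with each CG dinucleotide in capitals. Whether base composition sets Suz12 binding at these genes was not tested. Sequences are those of RefSeq (GRCm38.p6). The first and second belong to genes with a peak in all 8 lists whose Suz12 counts fell after treatment, the third to one in all 8 lists whose counts rose, and the last 3 to genes that all 4 treated lists, but no untreated list, mark with a peak. All bases shown lie inside the region counted for the gene, except that 191 of the 250 do for Slc25a21.
Slc25a21: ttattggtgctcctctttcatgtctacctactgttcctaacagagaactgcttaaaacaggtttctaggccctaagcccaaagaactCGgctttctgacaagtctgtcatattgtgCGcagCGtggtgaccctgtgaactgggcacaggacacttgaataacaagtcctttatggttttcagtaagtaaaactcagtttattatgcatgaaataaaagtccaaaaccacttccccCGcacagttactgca
Slc6a5: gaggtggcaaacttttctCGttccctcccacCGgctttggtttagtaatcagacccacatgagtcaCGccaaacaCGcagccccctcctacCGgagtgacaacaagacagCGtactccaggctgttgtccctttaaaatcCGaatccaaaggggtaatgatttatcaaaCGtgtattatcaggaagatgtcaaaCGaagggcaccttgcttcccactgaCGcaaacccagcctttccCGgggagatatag
Slc7a6: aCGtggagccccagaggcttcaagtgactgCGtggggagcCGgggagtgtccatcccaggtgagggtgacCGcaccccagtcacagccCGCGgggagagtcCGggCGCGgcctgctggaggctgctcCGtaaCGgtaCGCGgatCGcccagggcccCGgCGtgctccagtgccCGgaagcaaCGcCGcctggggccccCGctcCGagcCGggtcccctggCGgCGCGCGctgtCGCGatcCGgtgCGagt
Slc16a1: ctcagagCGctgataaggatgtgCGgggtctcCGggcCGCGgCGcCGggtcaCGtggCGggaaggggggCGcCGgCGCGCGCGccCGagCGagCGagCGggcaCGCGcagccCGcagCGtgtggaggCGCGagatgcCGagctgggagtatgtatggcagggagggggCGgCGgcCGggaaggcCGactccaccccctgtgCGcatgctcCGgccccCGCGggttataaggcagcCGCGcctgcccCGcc
Slc25a1: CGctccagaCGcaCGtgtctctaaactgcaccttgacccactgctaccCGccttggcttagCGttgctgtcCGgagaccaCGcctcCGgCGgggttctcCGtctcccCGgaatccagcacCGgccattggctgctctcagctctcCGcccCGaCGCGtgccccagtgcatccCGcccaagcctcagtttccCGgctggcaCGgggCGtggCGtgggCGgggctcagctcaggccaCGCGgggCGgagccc
Slc6a9: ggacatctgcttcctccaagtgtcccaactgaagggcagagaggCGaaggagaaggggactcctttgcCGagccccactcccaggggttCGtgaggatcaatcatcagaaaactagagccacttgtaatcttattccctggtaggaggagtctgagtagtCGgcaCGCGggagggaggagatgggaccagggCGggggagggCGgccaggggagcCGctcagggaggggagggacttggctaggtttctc
The stretch before Slc25a21 (chr12:57197473-57197722, minus strand) held 4 CG, and that before Slc6a5 (chr7:49910049-49910298, plus strand) held 11. There were 30 CG before Slc7a6 (chr8:106168604-106168853, plus strand), 37 before Slc16a1 (chr3:104638414-104638663, plus strand) and 25 before Slc25a1 (chr16:17928220-17928469, minus strand). Slc6a9 (chr4:117835008-117835257, plus strand), although it had a peak in every treated list, held 9. The last 3 genes thus overlapped the others in CG number. Of genes in all 8 lists, Slc25a21 and Slc6a5 had the largest falls and Slc7a6 the largest rise. They were not typical in CG number. In the longer promoter stretch compared below they held 4, 12 and 41 CG. Medians there, with the region at the start, were 21 for genes in all 8 lists that fell and 23 for those that rose. No trend of CG number with change can be read from these 6 stretches.

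Counts over the merged peak regions came to between 1323926 and 7340023 reads per library. Counts are given as CPM, reads per 1e6 reads counted over all 11943 regions after TMM scaling, so each value is a share of the Suz12 signal and not an absolute amount. In bulk chromatin, fewer cells with Suz12 at a site and less Suz12 per cell cannot be told apart. The lane numbers in the column names differ between untreated and treated libraries throughout, so lane and treatment cannot be told apart. The DRB columns carry an index and no replicate number, and their values are given with index ATCACG before index TGACCA, and those of triptolide in the order of replicates 1 and 2.

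Of the 181 genes, 67 had a peak in all 8 lists, 26 in all 4 treated lists and no untreated list, and 49 in 1 to 3 treated lists and no untreated list. A further 37 had peaks in some lists of both arms, and 2, Slc17a6 and Slc19a2, had peaks in untreated lists alone. None was present in all 4 untreated and absent from all 4 treated lists. The untreated lists held peaks at 79 and 101 of the 181 genes at DRB 0 h and at 79 and 101 at triptolide 0 h. The treated lists held 167 and 154 at DRB 12 h and 119 and 150 at triptolide 9 h. The makeup was close to that of all 7963 genes with a peak, of which 37.7% had one in all 8 lists, against 37.0% of the solute carriers, and 10.95% had one in all 4 treated lists alone, against 14.4%.

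The subfamilies differed in which class their genes fell into. All 3 members of Slc24, the potassium-dependent sodium/calcium exchangers, had a peak in all 8 lists, as did 6 of 7 members of Slc7, the cationic and neutral amino acid carriers, and 7 of 12 members each of Slc6, the sodium-coupled transmitter and amino acid transporters, and Slc16, the monocarboxylate carriers. In Slc25, the mitochondrial carriers, 4 of 19 members had a peak in all 8 lists and 10 had peaks in treated lists alone. In Slc35, which holds nucleotide sugar carriers of the Golgi and endoplasmic reticulum, 6 of 18 did and 9 had peaks in treated lists alone. None of the 5 members of Slc39, zinc importers, or of the 5 of Slc12, cation-chloride cotransporters, had a peak in all 8 lists. The subfamilies Slc3, Slc14, Slc28, Slc29, Slc31 and Slc33 had no gene with a peak among those considered. Slc7 here lacks Slc7a3, Slc7a5 and Slc7a11, which were among the 10 amino acid carriers set aside. Of those 10, 7 had a peak, and all 7 had it in all 4 treated lists and no untreated list. With few genes per subfamily, and lists that entered the choice, the subfamily numbers carry no test.

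**Figure D1:**
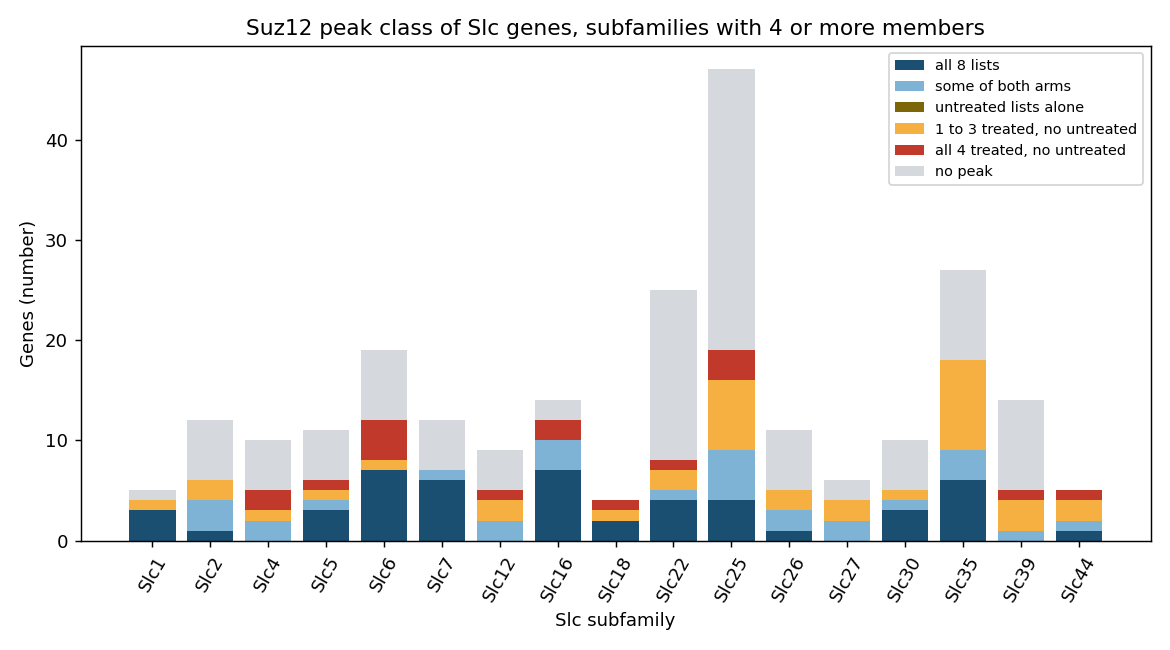
Bars give the number of genes in each Slc subfamily with 4 or more members, stacked by the Suz12 peak lists that held a peak within 1 kb of a gene end; grey marks genes with no peak. Slc7 is mostly dark blue (6 of 7 members in all 8 lists), while Slc25 and Slc35 carry more orange and red (10 of 19 and 9 of 18 members in treated lists alone). The 10 amino acid carriers set aside, Slc7a3, Slc7a5 and Slc7a11 among them, are not shown.

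At the 67 genes with a peak in all 8 lists, Suz12 counts mostly fell: over both drugs 45 fell, 6 rose and 16 did not pass the test, with a median log2 change of −0.47. The 67 genes have 65 regions, since Slc47a1 and Slc47a2, multidrug and toxin extruders, share one, as do the monocarboxylate carrier genes Slc16a11 and Slc16a13. The untreated lists were the shorter ones, with 5116 to 6886 peaks against 7153 to 10929 in the treated lists, so a peak in every list asks more of the untreated libraries. The 67 genes are therefore set beside all regions chosen in the same way. The test was edgeR's quasi-likelihood test at an adjusted p under 0.05 over all regions. Among all 11943 regions 28.9% fell and 28% rose, at a median of 0.05. Among the 4281 regions with a peak in all 8 lists 59.1% fell and 10.3% rose, at a median of −0.38, and the 67.2% that fell among the solute carriers stands beside that share, without a test between them. The CPM ranges of the 2 arms were apart at most of the 67 genes, with the treated range lower at 42 and higher at 4. The treated range was lower at 53% and higher at 8.46% of the 4281 regions, and at 25.2% and 24.4% of all regions. The number that fell rests on the scaling: with counts scaled to the regions kept in all 8 lists, 20 fell and 15 rose, at a median of −0.12, beside 25% and 25.7% of the 4281 regions. Substrate classes were assigned by subfamily number, so a class can hold genes that carry other substrates. By substrate class, 2 of 5 metal carriers and 2 of 5 sugar carriers fell, and 1 of the 3 genes of no named class.

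Suz12 counts mostly fell in the class of transmitter and vesicular transporters, as at the 67 genes as a whole (median −0.47). This class takes in every Slc6 member, whatever its substrate. Class medians were lower for mitochondrial carriers (−0.69) and ion exchangers and cotransporters (−0.63). Of the 11 transmitter and vesicular transporters with a peak in all 8 lists, 9 fell and 1 rose, at a median of −0.53 (−0.19 with kept-region scaling, 5 lower and 1 higher). Slc6a5 encodes the neuronal glycine transporter GlyT2, and its region (chromosome 7, 49907361 to 49910860) had 191 and 171 CPM at DRB 0 h, 69.6 and 68.2 at DRB 12 h, 200.1 and 181 at triptolide 0 h and 109 and 98.4 at triptolide 9 h. Every treated library lay well below every untreated one, a log2 change of −1.13 ± 0.10 (SE, adjusted p = 3.82e-06). Slc6a2, the noradrenaline transporter and the Slc6 gene with the highest untreated CPM, had 236 and 214 CPM at DRB 0 h, 138 and 140.1 at DRB 12 h, 217 and 231 at triptolide 0 h and 131 and 121 at triptolide 9 h. The groups did not overlap, and the change was −0.76 ± 0.09 (SE, adjusted p = 2.77e-05). Slc18a3 lies inside the first intron of Chat, so that the vesicular acetylcholine transporter and the enzyme that makes acetylcholine share a locus, and its region (chromosome 14, 32459555 to 32466296) also lies at the annotated start of Chat. It had 781 and 734 CPM at DRB 0 h, 573 and 485 at DRB 12 h, 765 and 838 at triptolide 0 h and 523 and 575 at triptolide 9 h, with the treated libraries below the untreated ones (−0.53 ± 0.08 (SE, adjusted p = 1.78e-04)). The dopamine and serotonin transporters and a GABA transporter also belong to this class: Slc6a3, Slc6a4 and Slc6a11 fell, by 0.56, 0.42 and 0.47. The vesicular carriers Slc18a2, for monoamines, and Slc32a1, for GABA and glycine, fell by 0.83 and 0.34. With kept-region scaling Slc6a3, Slc6a4, Slc6a11 and Slc32a1 no longer passed. These 5 genes were named after their values were seen.

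Exchangers of calcium and other ions behaved similarly. Of 10 ion exchangers and cotransporters with a peak in all 8 lists, 8 fell and 1 rose, at a median of −0.63 (−0.29 with kept-region scaling). Slc8a3, the sodium/calcium exchanger NCX3 of neurons and muscle (chromosome 12, 81331691 to 81334417), had 249.8 and 219 CPM at DRB 0 h, 130.04 and 111 at DRB 12 h, 234 and 231 at triptolide 0 h and 122 and 121 at triptolide 9 h. Treated values were about as far below the untreated ones under each drug, with a change of −0.95 ± 0.09 (SE, adjusted p = 1.04e-05). Slc26a4 encodes pendrin, an anion exchanger of the inner ear and thyroid (chromosome 12, 31558342 to 31560341), and had 179.97 and 196 CPM at DRB 0 h, 108 and 114 at DRB 12 h, 198 and 207 at triptolide 0 h and 102 and 109 at triptolide 9 h, a change of −0.85 ± 0.09 (SE, adjusted p = 1.55e-05). All 3 Slc24 genes fell, at a median of −0.69 (−0.34 with kept-region scaling, where 2 fell).

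Of all 67, the largest fall was at a mitochondrial carrier gene. Slc25a21 transports oxodicarboxylates of lysine and tryptophan breakdown, and its region (chromosome 12, 57196426 to 57197663) had 102 and 98.8 CPM at DRB 0 h, 39.6 and 45.3 at DRB 12 h, 96.3 and 97.5 at triptolide 0 h and 44.00 and 45.8 at triptolide 9 h. Replicates lay close together and the groups far apart, with −1.17 ± 0.11 (SE, adjusted p = 6.42e-06). Slc25a4 encodes the ADP/ATP carrier of heart and muscle (chromosome 8, 46209988 to 46212835) and had 85.5 and 122 CPM at DRB 0 h, 45.6 and 75.00 at DRB 12 h, 124 and 93.5 at triptolide 0 h and 59.2 and 46.4 at triptolide 9 h. Its libraries were more spread, though without overlap, and the change was −0.91 ± 0.17 (SE, adjusted p = 7.30e-04). The change at Slc25a48, the Slc25 gene with the highest untreated CPM, was −0.47 ± 0.11 (SE, adjusted p = 0.00411), and −0.12 (not called) with kept-region scaling. Slc25a24 was the one of the 4 that did not pass, at −0.31.

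Falls were also found among carriers of organic ions and amino acids. Slc22a3, the organic cation transporter OCT3 (chromosome 17, 12506492 to 12508319), had 148 and 145 CPM at DRB 0 h, 74.4 and 86.4 at DRB 12 h, 161 and 170.4 at triptolide 0 h and 85.5 and 89.7 at triptolide 9 h, with a change of −0.88 ± 0.10 (SE, adjusted p = 1.93e-05). At Slc7a14 (chromosome 3, 31308812 to 31310932) the values were 119 and 119 CPM at DRB 0 h, 68.4 and 66.7 at DRB 12 h, 121 and 121 at triptolide 0 h and 60.9 and 68.9 at triptolide 9 h, a change of −0.86 ± 0.10 (SE, adjusted p = 2.78e-05). At both genes no treated library reached the lowest untreated one. Slc1a2, the glial glutamate transporter GLT-1, changed by −0.53 ± 0.09 (SE, adjusted p = 4.37e-04), and Slc7a10, a neutral amino acid exchanger, by −0.59 ± 0.08 (SE, adjusted p = 1.01e-04). Both treated groups were below both untreated groups there too, but with kept-region scaling Slc1a2 was at −0.19 and no longer called. Of the 11 amino acid carriers with a peak in all 8 lists, 8 fell and 1 rose, and of 12 carriers of organic acids, lipids and drugs 8 fell and none rose (with kept-region scaling 2 and 3 fell, and 2 and 3 rose).

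**Figure D2:**
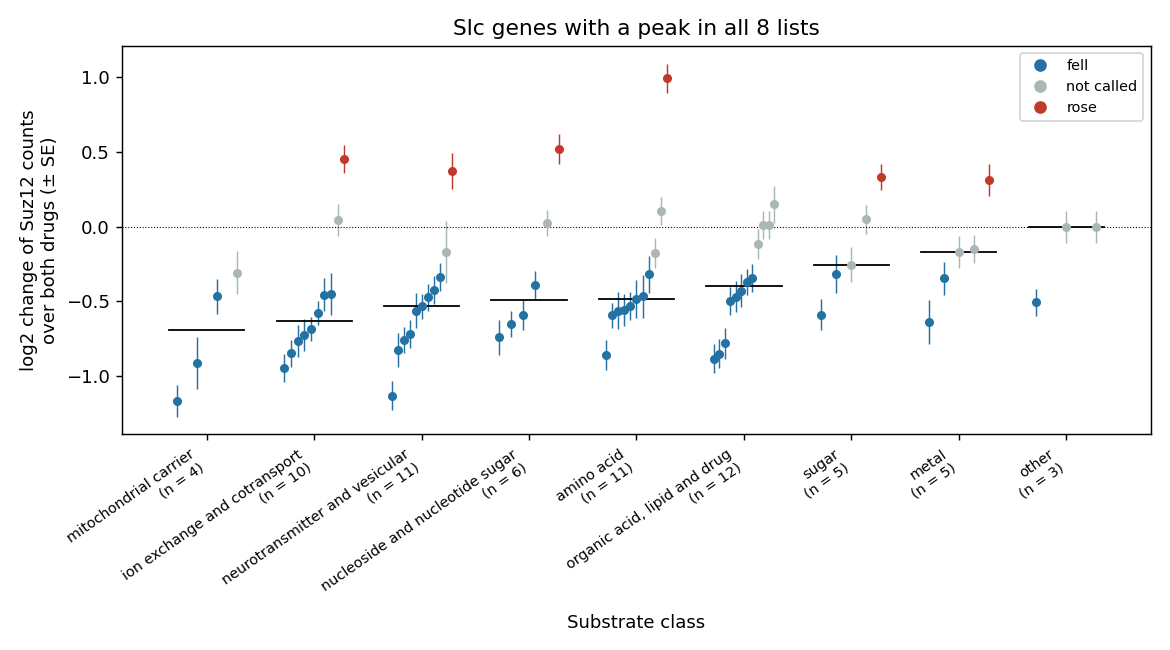
Each point is 1 of the 67 genes with a peak in all 8 lists, placed by substrate class; the vertical axis is the log2 change of Suz12 counts over both drugs with its SE, and black lines are class medians. Most points lie below 0, with Slc25a21 lowest at −1.17 and Slc7a6 highest at 0.99.

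Counts rose at 6 of the 67. Slc7a6 encodes the light chain y+LAT2, which exchanges cationic for neutral amino acids (chromosome 8, 106168096 to 106170199), and had 69.9 and 77.6 CPM at DRB 0 h, 144 and 137 at DRB 12 h, 66.5 and 68.6 at triptolide 0 h and 147 and 137 at triptolide 9 h. Every treated library had close to double the untreated values, a change of 0.99 ± 0.10 (SE, adjusted p = 1.04e-05) and the largest rise among the 67. Slc35c1, the GDP-fucose carrier of the Golgi (chromosome 2, 92458403 to 92461119), had 107 and 89.6 CPM at DRB 0 h, 118 and 122 at DRB 12 h, 90.03 and 86.6 at triptolide 0 h and 142 and 150.1 at triptolide 9 h. Its treated libraries were above the untreated ones (0.52 ± 0.10 (SE, adjusted p = 7.74e-04)), more so under triptolide (0.72) than under DRB (0.31), a difference that did not pass its own test. Slc9a5, the sodium/proton exchanger NHE5 (chromosome 8, 105346466 to 105350918), rose by 0.45 ± 0.09 (SE, adjusted p = 0.00139), but its region also lies at the start of Fhod1. The other rises were smaller. Slc17a7, the vesicular glutamate transporter VGLUT1, had 0.37 ± 0.12 (SE, adjusted p = 0.0186), in a region at its far end that is shared with Gfy. Slc5a5, the sodium/iodide symporter of the thyroid, had 0.33 ± 0.09 (SE, adjusted p = 0.00601), and Slc30a2, a zinc exporter, had 0.31 ± 0.11 (SE, adjusted p = 0.0241). Untreated and treated libraries overlapped at Slc17a7 and Slc5a5. Slc17a7 lost its call without DRB 0 h index TGACCA, without triptolide 0 h replicate 2 or without triptolide 9 h replicate 1 (0.28 to 0.31), and Slc30a2 without any of these or without triptolide 9 h replicate 2 (0.24 to 0.33), and with DESeq2 (0.30).

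Read drug by drug, the 67 genes gave like numbers. Under DRB 37 fell and 3 rose, against 19.2% and 18.1% of all regions and 42.4% and 6.82% of the 4281. Under triptolide 37 fell and 5 rose, against 21.9% and 19.3% of all regions and 48.7% and 6.77% of the 4281. The medians were −0.47 and −0.45. With kept-region scaling the numbers were 11 lower and 10 higher under DRB and 14 lower and 10 higher under triptolide. No gene of the 67 differed between the drugs in edgeR's test of the difference, nor in DESeq2; 3 had an unadjusted p under 0.05, and the largest difference in log2 change was 0.51. In that test 0.0167% of all regions were lower under DRB and 0% higher, and 0.0234% and 0% of the 4281. Without DRB 0 h index TGACCA, 17 of the 67 fell and 1 rose under DRB. Without triptolide 9 h replicate 1 or 2, 21 or 23 fell under triptolide. At Slc6a5 the log2 change was −1.38 ± 0.14 under DRB and −0.88 ± 0.13 under triptolide (SE).

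The 26 genes marked in all 4 treated lists alone were spread over most substrate classes. Among genes with a peak they made up 5 of 20 in the transmitter and vesicular class and 3 of 19 mitochondrial carriers. Those 5 include the creatine transporter gene Slc6a8 and the neutral amino acid transporter gene Slc6a15, placed in that class by subfamily number alone. The 26 made up 7 of 17 genes of no named class. They made up 0 of 18 in the nucleoside and nucleotide sugar class, all of which were Slc35 genes. By highest treated CPM they were led by Slc12a5, Slc6a9, Slc16a6, Slc66a1, Slc25a1, Slc16a1, Slc6a15 and Slc11a2. Higher treated counts come with this choice, so the values that follow are descriptions, without a test over both drugs. Slc16a1 encodes the lactate and pyruvate carrier MCT1 (chromosome 3, 104638010 to 104639817) and had 25.5 and 35.5 CPM at DRB 0 h, 77.2 and 78.1 at DRB 12 h, 20.4 and 28.9 at triptolide 0 h and 61.3 and 58.7 at triptolide 9 h. Slc25a1, the mitochondrial citrate carrier (chromosome 16, 17926727 to 17928727), had 21.4 and 28.7 CPM at DRB 0 h, 83.6 and 75.5 at DRB 12 h, 28.96 and 25.6 at triptolide 0 h and 68.8 and 64.9 at triptolide 9 h. At both genes every treated library lay far above every untreated one. Slc6a9 encodes GlyT1, the glycine transporter of glia and many other cells (chromosome 4, 117834480 to 117836626), and had 49.3 and 45.4 CPM at DRB 0 h, 103 and 83.5 at DRB 12 h, 38.99 and 35.7 at triptolide 0 h and 87.2 and 84.3 at triptolide 9 h. Slc16a6 (chromosome 11, 109471172 to 109474356), in a region that also covers the start of Arsg, had 32.05 and 30.8 CPM at DRB 0 h, 74.4 and 75.9 at DRB 12 h, 26.1 and 25.99 at triptolide 0 h and 77.4 and 82.2 at triptolide 9 h. Slc66a1, a lysosomal exporter of cationic amino acids whose region is shared with the start of Akr7a5 (chromosome 4, 139309975 to 139312181), had 43.6 and 44.00 CPM at DRB 0 h, 75.6 and 78.8 at DRB 12 h, 46.2 and 44.8 at triptolide 0 h and 75.9 and 72.2 at triptolide 9 h. Slc6a15, a neutral amino acid transporter (chromosome 10, 103367238 to 103368966), had 26.3 and 30.6 CPM at DRB 0 h, 38.01 and 69.8 at DRB 12 h, 25.8 and 24.9 at triptolide 0 h and 62.2 and 57.03 at triptolide 9 h, with a wide gap between the libraries at DRB 12 h. Slc11a2, the iron and metal transporter DMT1 (chromosome 15, 100422257 to 100424732), had 36.98 and 49.6 CPM at DRB 0 h, 61.2 and 50.6 at DRB 12 h, 37.8 and 35.7 at triptolide 0 h and 55.2 and 50.8 at triptolide 9 h. There the highest untreated library came close to the lowest treated one.

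Slc12a5, the potassium-chloride cotransporter KCC2 of neurons, stands somewhat apart from the others of this class. The region (chromosome 2, 164996487 to 164999162) ends 569 bp inside the far end of the gene, away from its start. It had 113 and 96.00 CPM at DRB 0 h, 180.4 and 179 at DRB 12 h, 117 and 90.2 at triptolide 0 h and 180.02 and 168 at triptolide 9 h, so that its untreated density of 39.7 CPM per kb was the highest of the 26 and above the 33.2 of Slc30a2, the lowest of the genes with a peak in all 8 lists. The merged region in fact held peaks of all 8 lists, and the untreated ones ended over 1 kb from the gene end. Over the class, the median untreated density was 16.004 CPM per kb, against 62.8 for genes in all 8 lists, and the treated medians were 30.3 and 48.9. The medians for genes in 1 to 3 treated lists were 13.9 untreated and 19.9 treated.

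**Figure D3:**
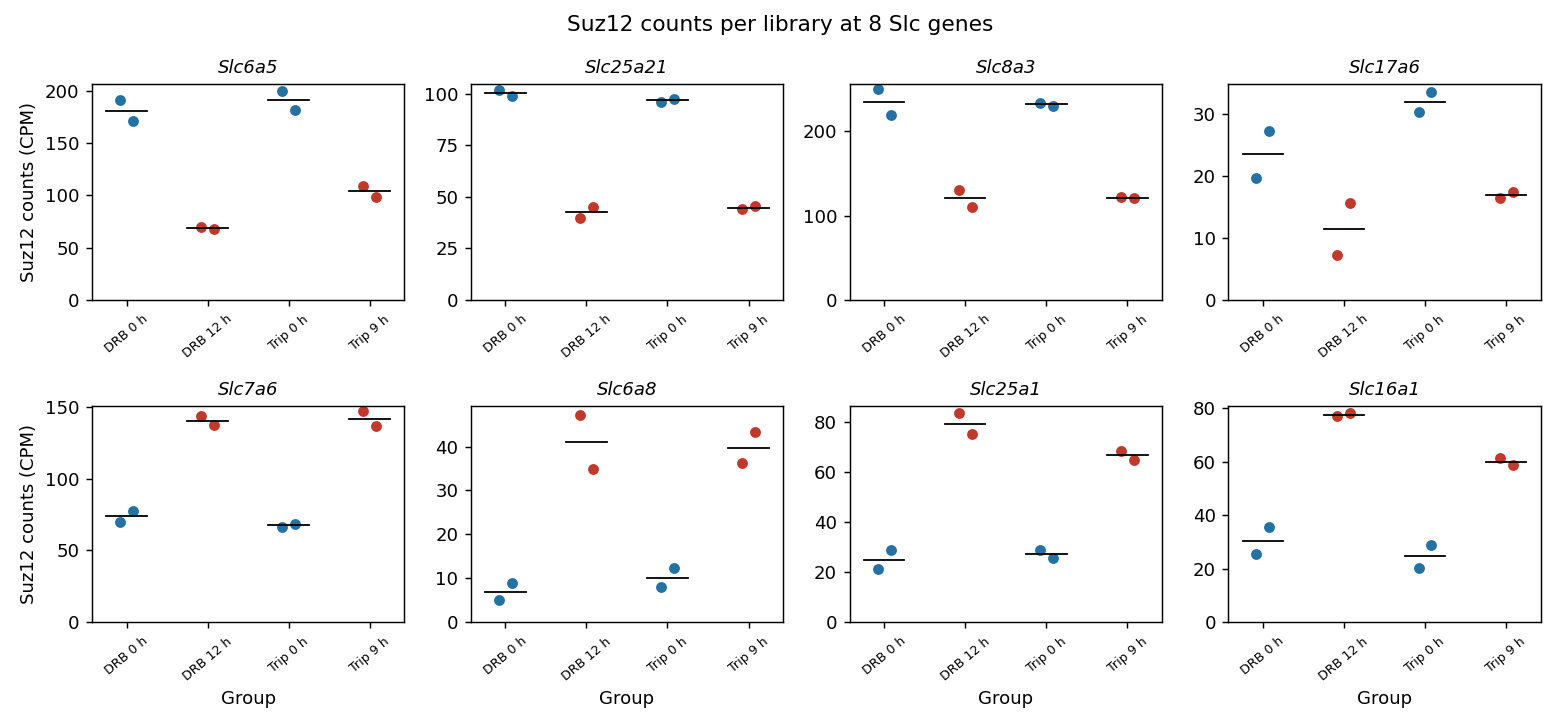
Each panel shows Suz12 CPM in the 8 libraries at 1 gene, blue for untreated and red for treated libraries, with black lines at group means (n = 2 each) and axes that start at 0. Slc6a5, Slc25a21, Slc8a3 and Slc17a6 are lower in all treated libraries, and Slc7a6, Slc6a8, Slc25a1 and Slc16a1 higher.

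Genes that gained a peak under one drug could be tested in the libraries of the other, which had untreated cells of their own. Of the 181 genes, 49 had a peak in both DRB 12 h lists and in neither DRB 0 h list. In triptolide counts 28 of these 49 rose and none fell, at a median of 0.69, and 48 of 49 had a positive change. Of the 2874 regions gained in DRB lists in the same way 46.5% rose and 0.348% fell, at a median of 0.60, and 57.1% of the solute carriers stand beside it. In the reverse case 26 genes had a peak in both triptolide 9 h lists and in neither triptolide 0 h list. All 26 were also among the 49, so they are not a separate set. They are the same 26 genes described above as marked in every treated list and no untreated list. In DRB counts 19 of the 26 rose and none fell, at a median of 0.82, against 63.5% higher and 0.224% lower among 1337 regions, at a median of 0.79. For 1 gene of each set the counted region itself also had a peak in an untreated list of that drug. Without DRB 0 h index TGACCA or ATCACG, 9 or 12 of the 26 rose, and without triptolide 0 h replicate 2, 18 of the 49 rose.

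The creatine transporter gene Slc6a8 had the largest change in both of these tests. Its region (chromosome X, 73672912 to 73674414) had 4.93 and 8.94 CPM at DRB 0 h, 47.2 and 34.8 at DRB 12 h, 8.03 and 12.3 at triptolide 0 h and 36.2 and 43.3 at triptolide 9 h. The untreated density of 5.76 CPM per kb was the second lowest of the 181 genes, and every treated library was well above every untreated one, with 2.37 ± 0.31 under DRB (SE, adjusted p = 2.73e-04) and 1.99 ± 0.28 under triptolide (SE, adjusted p = 3.94e-04). Slc16a6 rose by 1.61 ± 0.16 under triptolide (SE, adjusted p = 6.01e-05) and by 1.27 ± 0.17 under DRB (SE, adjusted p = 2.86e-04). For Slc25a1 the changes were 1.60 ± 0.19 under DRB (SE, adjusted p = 1.57e-04) and 1.29 ± 0.18 under triptolide (SE, adjusted p = 3.85e-04), and for Slc16a1 1.28 ± 0.20 under DRB (SE, adjusted p = 8.46e-04) and 1.30 ± 0.20 under triptolide (SE, adjusted p = 6.41e-04). Slc7a1, the cationic amino acid transporter CAT-1, had a peak in 1 untreated triptolide list, so it was gained in DRB lists alone. Its counts (chromosome 5, 148398662 to 148400542) were 34.5 and 36.7 CPM at DRB 0 h, 84.02 and 91.96 at DRB 12 h, 29.5 and 38.98 at triptolide 0 h and 84.2 and 99.3 at triptolide 9 h, and in triptolide counts it rose by 1.43 ± 0.18 under triptolide (SE, adjusted p = 2.10e-04). Slc35b2 carries the sulfate donor PAPS into the Golgi, and its region (chromosome 17, 45563650 to 45565098) also lies at the far end of Nfkbie. With 11.5 and 19.5 CPM at DRB 0 h, 33.2 and 29.9 at DRB 12 h, 13.8 and 12.6 at triptolide 0 h and 36.4 and 34.97 at triptolide 9 h, it rose by 1.43 ± 0.24 under triptolide (SE, adjusted p = 8.00e-04). Slc11a2 did not pass in DRB counts (0.30 ± 0.19, SE), and Slc4a8 and Slc5a3 passed in neither drug. Slc2a4, the insulin-responsive glucose transporter, was the single gene of the 49 below 0, at −0.16. Slc4a8, Slc5a3 and Slc2a4 were named after their values were seen.

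**Figure D4:**
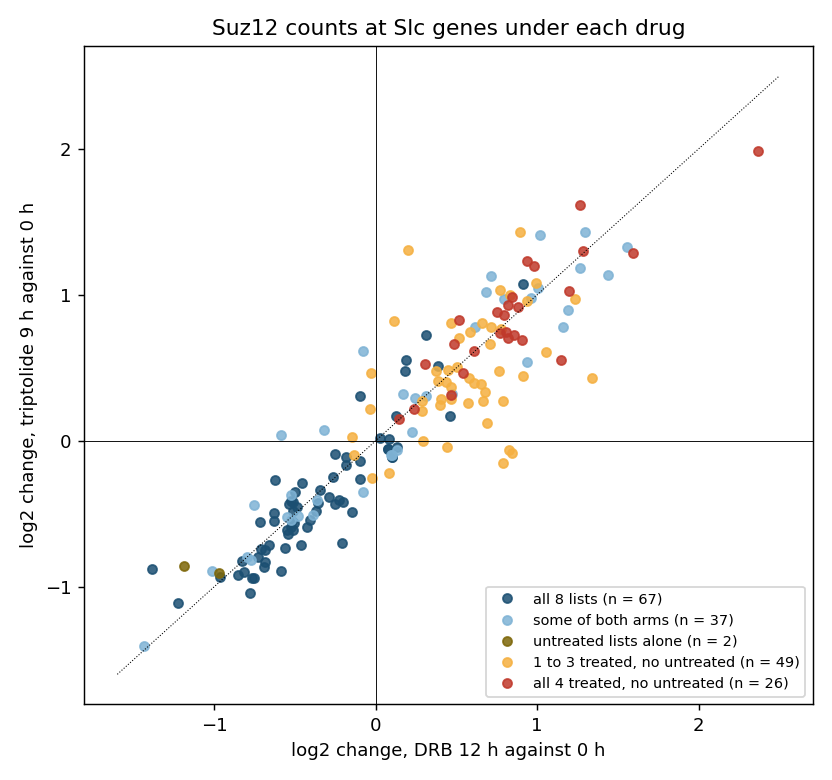
Each point is 1 of the 181 genes, with the log2 change of Suz12 counts under DRB on the horizontal and under triptolide on the vertical axis; colours give the peak class and the dotted line marks equal change. Points lie along the line, genes in all 8 lists mostly at lower left and genes in treated lists alone at upper right, with Slc6a8 at 2.37 and 1.99.

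Genes with peaks in untreated lists alone had low counts. Slc17a6, the vesicular glutamate transporter VGLUT2 (chromosome 7, 51621527 to 51622614), had a peak in 2 untreated lists and 19.7 and 27.3 CPM at DRB 0 h, 7.20 and 15.7 at DRB 12 h, 30.4 and 33.6 at triptolide 0 h and 16.5 and 17.5 at triptolide 9 h. Slc19a2, a thiamine transporter (chromosome 1, 164248988 to 164249704), had a peak in 2 untreated lists and 18.9 and 23.3 CPM at DRB 0 h, 6.80 and 11.1 at DRB 12 h, 16.9 and 20.9 at triptolide 0 h and 9.73 and 11.03 at triptolide 9 h. Treated libraries were lower than untreated ones at both, and since the lists chose these genes the values carry no test. Of the 37 genes with peaks in some lists of both arms, the untreated CPM was highest in its subfamily at Slc4a11, Slc27a3 and Slc39a6. Slc4a11 (chromosome 2, 130696303 to 130698022) had 52.6 and 47.1 CPM at DRB 0 h, 58.02 and 48.2 at DRB 12 h, 48.7 and 63.9 at triptolide 0 h and 49.9 and 54.9 at triptolide 9 h, with overlapping groups. Slc27a3, of the fatty acid transport family, had 32.9 and 39.5 CPM at DRB 0 h, 39.2 and 43.5 at DRB 12 h, 39.3 and 39.7 at triptolide 0 h and 51.6 and 46.8 at triptolide 9 h, also overlapping. Slc39a6, the zinc importer ZIP6, had 26.3 and 33.9 CPM at DRB 0 h, 58.8 and 60.3 at DRB 12 h, 34.4 and 34.3 at triptolide 0 h and 53.5 and 46.4 at triptolide 9 h, with the treated libraries higher, in a region that also lies at an end of Elp2.

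Density of untreated counts was compared per kb of counted peak among the genes that led their subfamilies. It was 156 CPM per kb at Slc35d3, 141 at Slc18a3, 99.5 at Slc26a4, 83.7 at Slc2a13, 82.9 at Slc7a10, 80.2 at Slc1a2, 79.4 at Slc6a2 and 79.1 at Slc22a23. It was 75.8 at Slc44a5, 75.5 at Slc25a48, 71.4 at Slc30a10, 45.1 at Slc5a5, 39.7 at Slc12a5, 30.9 at Slc4a11, 23.5 at Slc27a3 and 23.2 at Slc39a6. Neighbours in this order from Slc2a13 to Slc30a10 differ by little, and their libraries were not tested against each other. Slc35d3 (chromosome 10, 19848632 to 19852462) had 629 and 526 CPM at DRB 0 h, 484 and 416 at DRB 12 h, 554 and 661 at triptolide 0 h and 438 and 467 at triptolide 9 h, and changed by −0.39 ± 0.09 (SE, adjusted p = 0.00342). Its region covers the gene start of the RefSeq promoter table (19851459, minus strand) and begins 715 bp inside the far end of the gene. For Slc22a23 the change was −0.37 ± 0.09 (SE, adjusted p = 0.00349) and for Slc44a5, a choline transporter-like gene, −0.51 ± 0.09 (SE, adjusted p = 4.51e-04). With kept-region scaling Slc35d3, Slc22a23 and Slc44a5 stood at −0.04, −0.03 and −0.16 and none of these 3 passed. Slc2a13, the proton/myo-inositol symporter, had −0.32 ± 0.13 (SE, adjusted p = 0.0498), with overlapping libraries and at the edge of the threshold: it was no longer called without either DRB 0 h library, without DRB 12 h index TGACCA, without triptolide 0 h replicate 2 or without either triptolide 9 h library (−0.38 to −0.19), with DESeq2 (−0.33) or with kept-region scaling (0.03). Slc30a10, a manganese exporter, had −0.15 ± 0.09 (SE), which did not pass.

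The rule allows a peak at either end of a gene. Strand was known from the RefSeq promoter table for 140 of the 181 genes. The counted region was assigned to the start of 128 of them and to the far end of 12. Where a region lay within 1 kb of both ends, the end of lower coordinate was taken. Regions of minus-strand genes among the 12 can therefore cover the start too, as at Slc35d3. The region touched the annotated end itself at 149 genes, and lay over 0.5 kb away at 12. The gene nearest to the limit inside it was Slc4a2, an anion exchanger, at 995 bp (34.98 CPM untreated and 62.4 treated on average). The nearest outside was Slc26a8 at 1091 bp, with 15.98 and 19.9 CPM. The distance of Slc4a2 is to its annotated end. Its region (chromosome 5, 24424756 to 24428758) covers the first start in the RefSeq promoter table (24425232, plus strand). At 35 of the 181 genes the region also lay within 1 kb of an end of another protein-coding gene, so its counts cannot be given to either gene alone.

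Promoters of these genes were rich in CpG, as were those of all genes with a peak in all 8 lists at the start, given below. Over 300 bases, from 250 before to 50 after the first start in the RefSeq table, the 140 matched genes had a median of 20 CpG and 63.3% G+C. The 17274 matched protein-coding genes had 14 and 56.3%, and the 133 matched solute carrier genes without a peak had 8 and 54.3%. A G+C content of at least 55% together with an observed over expected CpG ratio of at least 0.6 was met by 59.3% of the genes with a peak, 41.8% of all and 25.6% of those without a peak. Among the classes the median was 20 CpG for genes in all 8 lists, 21 for genes in all 4 treated lists alone and 18 for genes in 1 to 3 treated lists, so the classes hardly differed. Within every class the spread was wide, from 1 to 46 CpG for genes in all 8 lists. For genes in all 8 lists with the region assigned to the start, the median was 23 CpG for the 5 that rose. It was 19 for the 11 that did not pass and 21 for the 36 that fell. The 3 groups thus had no order from rise to fall. Genes assigned to the far end, Slc35d3 among them, were left out here. Over all genes of that kind the median was 28 for 233 that rose, 24 for 605 that did not pass and 20 for 1099 that fell. Whatever the direction, it was 20 CpG for the 52 solute carriers and 22 for all 1937 genes. The G+C and CpG ratio thresholds were met by 61.5% of the former and 65.3% of the latter. Spearman's rho of CpG number with the log2 change was 0.23 over 52 solute carriers and 0.22 over 1937 genes, a description over genes that share libraries and base composition.

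**Figure D5:**
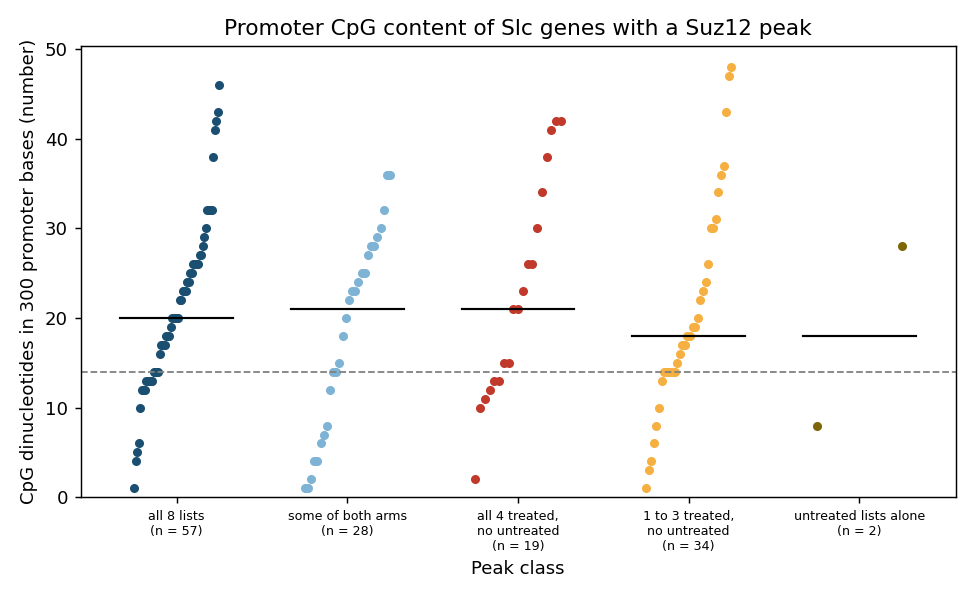
Points give the number of CpG dinucleotides in 300 promoter bases of the 140 genes matched to the RefSeq table, by peak class, with black lines at class medians; the dashed line is the median of 14 over all matched protein-coding genes. Class medians from 18 to 21 lie above the dashed line, and points spread from 1 to 48.

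Other families of membrane transporters give a frame for these numbers. Of 50 ABC transporter genes 17 had a peak, 6 of them in all 8 lists and 2 in all 4 treated lists alone. Of 40 P-type ATPase genes 22 had a peak, 9 in all 8 lists and 2 in the treated lists alone. Aquaporins had 4 genes with a peak of 11, and organic anion carriers of the Slco family 4 of 14, 3 and 4 of them in all 8 lists. Over both drugs 3 of the 6 ABC genes in all 8 lists fell and none rose, at a median of −0.05. Of the 9 ATPase genes 4 fell and 3 rose, at a median of −0.08. Of the 3 aquaporin genes 2 fell and none rose, at a median of −0.31, and of the 4 Slco genes 2 fell and none rose, at a median of −0.26. The median at the 67 solute carriers was −0.47. With kept-region scaling the medians were 0.29, 0.26, 0.03 and 0.08 in these families and −0.12 at the solute carriers, with 3 ABC, 3 ATPase and 1 aquaporin gene higher and 1 aquaporin gene lower. Among the 10 amino acid carriers set aside, 7 had a peak, and all 7 were in the class of all 4 treated and no untreated lists. These families were not tested against each other.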

How the data were processed

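Suz12 ChIP-seq libraries of mouse embryonic stem cells were analysed from peak lists and from read counts over peaks. Reads were aligned with Bowtie and peaks called with MACS on mm10, per the submitters' processing notes, where no versions are given. The deposited tables hold whole-number counts of reads per peak, not normalized, per the file headers and the values. Of the 13 count columns in each table, 8 were used and 5 (intermediate times and an input) were not used here. Columns of the DRB libraries carry an index and could not be matched to replicate numbers of the lists.

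Peaks of the 8 lists were merged where they overlapped by 1 bp into 11943 regions, and each region took the counts of its widest peak. Library totals were not used, so changes are relative to the other regions. A gene took its widest region within 1 kb of either end in the RefSeq table (GRCm38.p6), which gives names and ends. Counts were fitted with edgeR 4.0.16 (R 4.3.3; TMM scaling, no filter, quasi-likelihood test, all 4 groups) with Benjamini-Hochberg adjustment over all regions and a threshold of 0.05. Genes chosen by treated or untreated lists alone were tested only in the libraries of the other drug. The fit was also run on simulated data in which few of the regions changed, so that run does not bear on the choice of scaling.

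Genes named were, by rule, the 8 largest falls and rises among genes in all 8 lists, the 8 of highest treated CPM among genes in all 4 treated lists alone, the highest untreated CPM in each subfamily with 4 or more genes, genes in untreated lists alone, the 4 largest changes of gained genes in the other drug, and the genes nearest to the 1 kb limit; some genes that the rule names are not reported here. The genes, the lists and the substrate classes were chosen with earlier results of these data known. Alternatives were other scalings, DESeq2 1.42.0, a count filter, other windows, regions, peak widths and overlaps, a replicate block, and leaving out each library. Counting error alone does not set the precision, since 2 libraries a group give few degrees of freedom.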

Additional observations from a re-analysis of the deposited data

How the results depend on the processing

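Of the counts of genes recomputed under other settings, 187 stayed within 1.5 times the reported count and 41 did not. With counts scaled to the regions in all 8 lists, 15 of the 67 genes rose and 20 fell over both drugs, 10 and 11 under DRB and 10 and 14 under triptolide. With scaling to the sum of counts, 10 rose over both drugs, 5 rose and 19 fell under DRB, and 23 fell under triptolide. With DESeq2, 1 rose under DRB. With a 2.5 kb window 10 of 74 rose over both drugs and 5 under DRB. At the start side alone 16 genes were in all 4 treated lists and no untreated list, 17 of 32 genes gained in DRB lists rose under triptolide, and 11 of 16 gained in triptolide lists rose under DRB; fewer genes have a known strand. With peaks of at least the median width, 97 genes had a peak, 29 in all 8 lists and 10 in the treated lists alone. Of those 29, 3 rose and 18 fell over both drugs, 1 and 15 under DRB and 2 and 16 under triptolide, and 13 of 15 genes gained in DRB lists rose under triptolide. Without regions at an end of another gene, an alternative chosen after seeing the data, 3 of 59 rose under triptolide.

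Leaving out 1 library or list at a time gave these ranges. Over both drugs 40 to 45 fell and 4 to 6 rose. Under DRB 17 to 38 fell and 1 to 2 rose, and under triptolide 21 to 40 fell and 3 to 6 rose. Of genes gained in DRB lists 18 to 31 rose under triptolide, and of genes gained in triptolide lists 9 to 19 rose under DRB. Genes with a peak numbered 162 to 181, those in all remaining lists 67 to 73, and those in the treated lists alone 26 to 42, the highest without triptolide 9 h replicate 1. No gene of the 67 differed between the drugs in any of these fits. The cause of these shifts was not tested.

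Signs turned at 3 named genes, none of which had a firm change. Slc2a13 was at 0.0284, Slc30a10 at 0.19 and Slc4a11 at 0.34 with scaling to kept regions. Slc30a10 was at 0.0522 and Slc4a11 at 0.20 with the sum of counts, and at 0.0002 and 0.15 with wide peaks. Slc4a11, at −0.0015 in the reported fit, was at 0.0022 with peaks merged at 0.5 overlap and between −0.0954 and 0.10 with 1 library left out, being above 0 without DRB 0 h ATCACG (0.03), DRB 12 h TGACCA (0.08), triptolide 0 h replicate 2 (0.10) or triptolide 9 h replicate 1 (0.04).

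Triptolide replicates share numbers, and deviations from group means correlated at 0.39 for the number and 0.37 for the DRB index, with 2 pairs each, so the numbers are not shown to pair the samples. With the triptolide number as a replicate block, 6 rose and 45 fell over both drugs, 35 fell under DRB, and Slc4a11 was at 0.0008. With the DRB index added, a block chosen after seeing the data, 48 fell over both drugs, 44 under DRB and 46 under triptolide.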
